A study of Mus musculus with 24 samples.

Results

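The zinc exporters of the Slc30 family (also called ZnT proteins) were followed across the whole count table. The 9 members were the rows for *Slc30a1*, *Slc30a2*, *Slc30a3*, *Slc30a4*, *Slc30a5*, *Slc30a6*, *Slc30a7*, *Slc30a9* and *Slc30a10*, out of 55291 gene symbols, taken by name and not by their values. RNA-seq was done on mouse myoblasts that carried 1 of 4 stable constructs: a scrambled shRNA (scr), or an shRNA against *Baf180* (*Pbrm1*), *Baf250a* (*Arid1a*) or *Brd9*, each a subunit of a different form of the SWI/SNF chromatin remodeler. Each of the 4 lines was grown for 48 h without added metal (NT), with 100 µM CuSO4 or with 50 µM ZnSO4, in 2 replicates, which gave 12 groups and 24 libraries. The controls carried a scrambled construct, and wild-type cells were not analysed here. The study's methods name the cells as C2C12, an established line of mouse myoblasts, made into lines by lentiviral transduction, whereas the sample labels speak of primary myoblasts and a transient transfection; groups were taken from the sample titles, with which the treatment field of the labels did not always match.

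Most ZnT proteins move zinc out of the cytosol, either across the plasma membrane or into organelles. *Slc30a1* encodes ZnT1, the exporter of the plasma membrane, and is a known target of the metal-responsive transcription factor MTF-1, as are the metallothionein genes *Mt1* and *Mt2*, whose products bind zinc and copper. The other members serve compartments inside the cell: *Slc30a4* endosomes and lysosomes, *Slc30a5*, *Slc30a6* and *Slc30a7* the Golgi and secretory pathway, *Slc30a2* and *Slc30a3* secretory and synaptic vesicles, and *Slc30a9* the mitochondrion. *Slc30a10* mainly exports manganese.

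Total counts per library ran from 495778 to 75179394 with a median of 22158430, and 1 library stood apart: Zn-treated *Baf250a* KD replicate 2 held 495778 counts, against at least 12719173 in each of the other 23. *Slc30a1* had 13 counts there, which is 25.6 CPM (counts scaled to library size, with the TMM factor of each library) with an exact Poisson 95% interval of 13.6 to 43.8 CPM, covering counting error only. Each targeted gene was lower in all 6 libraries of its own KD line than in all 6 scr libraries (*Pbrm1* 42.1 to 75.7 against 97.8 to 236 CPM, *Arid1a* 91.9 to 146 against 268 to 305 CPM, *Brd9* 13.8 to 17.6 against 26.7 to 31.7 CPM). The summed level of 5 myoblast markers (*Myod1*, *Myf5*, *Pax7*, *Cdh15*, *Des*) was 2250 to 3130 CPM in scr and lower in every KD library (1090 to 1830 CPM), although *Pax7* was low throughout, and 6 markers of endothelium, blood, fat and epithelium summed to at most 6.31 CPM in any library. The summed level of 6 markers of differentiating muscle (*Myog*, *Mymk*, *Mymx*, *Ckm*, *Acta1*, *Myh3*) also differed between lines, at 61 to 92.3 CPM in scr, 109 to 157 in *Baf180* KD, 51.8 to 69 in *Baf250a* KD and 26.7 to 33.1 in *Brd9* KD. The part of these marker differences in the KD results below was not tested. In bulk libraries, fewer cells of one kind and less RNA per cell cannot be told apart.

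Of the 9 genes, 3 were not measurable. *Slc30a2* had 3 counts in all, in 1 library, and *Slc30a10* had 3 counts, 1 in each of 3 libraries. *Slc30a3* had 55 counts over 17 libraries and never more than 9 in one. In the 23 deeper libraries 3 counts were worth 0.0394 to 0.22 CPM, so levels below that were not detectable. The other 6 genes had counts in all 24 libraries and passed the filter on low counts in every comparison, so each was tested everywhere.

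Among these 6 genes, *Slc30a4* was the most abundant per length of transcript. Its level, in CPM per kb of merged exons, had a median of 33.9 over the 24 libraries (14 to 70.4), against medians of 7.57 for *Slc30a5*, 6.82 for *Slc30a6*, 5.74 for *Slc30a9*, 5.18 for *Slc30a7* and 4.1 for *Slc30a1*. *Slc30a4* therefore made up a median of 54.1% of the summed family level per kb, and 42.5% when each gene was scaled by its longest transcript instead. In untreated cells its share was 57.2% ± 6.29 (SD, n = 2) in scr, 54.1% ± 1.74 in *Baf180* KD, 38.6% ± 1.29 in *Baf250a* KD and 67.5% ± 1.51 in *Brd9* KD. The plasma membrane exporter *Slc30a1* held the smallest share of the 6 in untreated scr cells, 3.46% ± 0.617, and 9.35% ± 0.472 in untreated *Baf250a* KD cells. The ranges of the genes below *Slc30a4* overlapped (for example 6.52 to 11.1 CPM per kb for *Slc30a5* and 5.88 to 10.3 for *Slc30a6*), and their order changed with the choice of length.

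**Figure D1:**
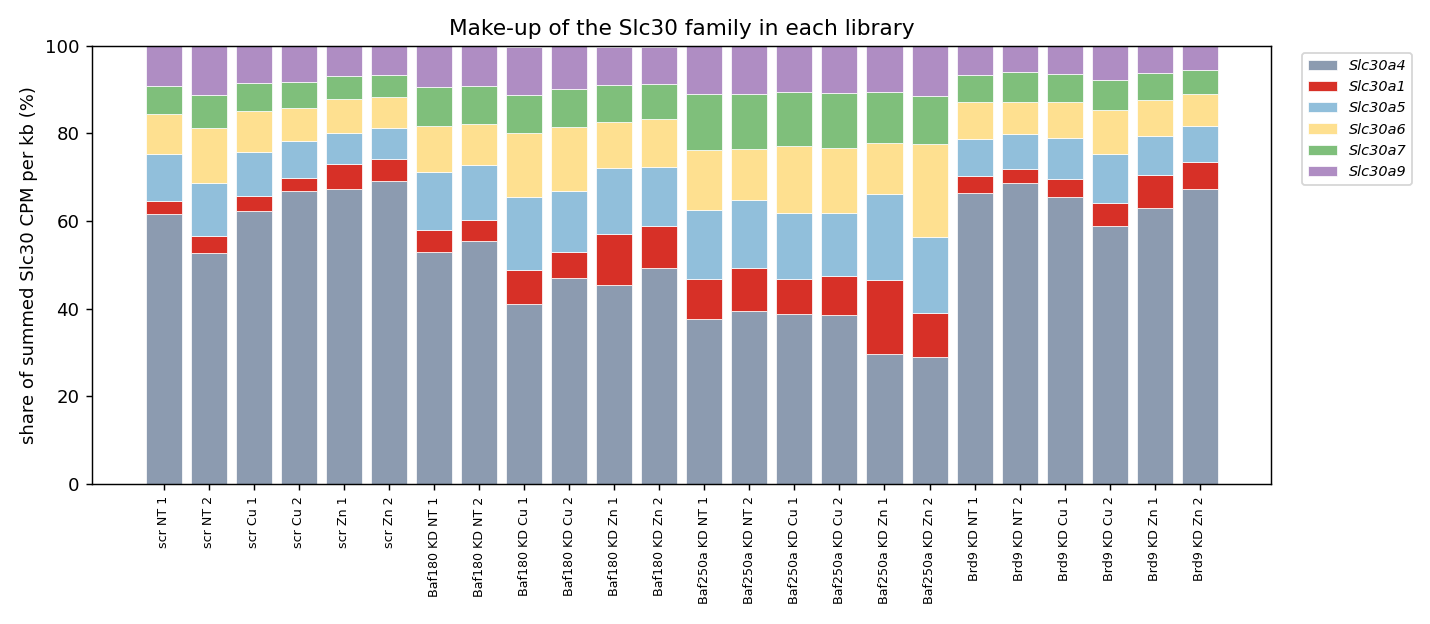
Stacked bars give the share of each tested Slc30 gene in the summed CPM per kb of the family (vertical axis, %) for each of the 24 libraries (horizontal axis, by line, treatment and replicate). *Slc30a4* (grey) ran from 29% in Zn-treated *Baf250a* KD cells to 69% in Zn-treated scr cells, while *Slc30a1* (red) ran from 3.03% to 16.8%.

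*Slc30a1* lies on chromosome 1 (GRCm38, 191906767 to 191913247, plus strand) and *Slc30a4* on chromosome 2 (122681233 to 122702663, minus strand). The bases upstream of the RefSeq start sites of *Slc30a1* and *Slc30a4*, the members with the widest responses, and of *Slc30a7* for contrast, are shown 5′ to 3′ from 250 bases before the start site to 10 bases after it. Capitals mark the core of the metal response element that MTF-1 binds, searched as TGCGCNC and TGCACNC on both strands.
Slc30a1 (chr1:191906531-191906790, plus strand): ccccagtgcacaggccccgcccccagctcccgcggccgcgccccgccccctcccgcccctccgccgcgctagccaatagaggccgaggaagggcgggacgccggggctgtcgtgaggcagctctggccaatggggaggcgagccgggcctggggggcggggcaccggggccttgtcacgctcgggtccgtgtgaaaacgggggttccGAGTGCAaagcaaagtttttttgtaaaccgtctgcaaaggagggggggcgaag
Slc30a4 (chr2:122702654-122702913, minus strand): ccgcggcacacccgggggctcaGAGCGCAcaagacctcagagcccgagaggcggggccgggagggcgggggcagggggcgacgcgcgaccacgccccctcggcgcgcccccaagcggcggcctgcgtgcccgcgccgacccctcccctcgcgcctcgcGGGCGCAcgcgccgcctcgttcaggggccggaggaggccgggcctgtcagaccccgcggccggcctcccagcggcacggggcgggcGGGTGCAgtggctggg
Slc30a7 (chr3:116007397-116007656, minus strand): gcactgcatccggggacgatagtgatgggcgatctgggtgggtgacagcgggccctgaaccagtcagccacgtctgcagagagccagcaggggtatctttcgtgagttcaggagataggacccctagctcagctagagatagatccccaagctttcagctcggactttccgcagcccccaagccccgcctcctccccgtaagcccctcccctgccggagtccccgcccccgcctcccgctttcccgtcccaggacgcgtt
The *Slc30a1* stretch holds 1 core, beginning at position -43 from the start site, and a second one begins at position 31, beyond the stretch shown. *Slc30a4* holds 3 cores, beginning at positions -228, -92 and -6, and *Slc30a7* holds none. Over windows of 300 bases (250 before to 50 after the start), *Slc30a10* held 3 cores of which a pair overlapped, *Slc30a2* held 2, *Slc30a5* held 1, *Slc30a6* and *Slc30a9* held none, and *Slc30a3* held 1 at one of its start sites and none at the other. Of all 32851 mouse promoters of this length, 25.7% held at least 1 core, 7.11% at least 2 and 1.97% at least 3. These shares were not matched for GC content, which was 73.0% in the *Slc30a1* window, 81.7% in that of *Slc30a4* and 65.7% in that of *Slc30a7*. A match of these letters is a description of the sequence and not evidence of binding.

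To ask how the exporters responded to zinc, Zn-treated cells were compared with untreated cells of the same line. *Slc30a1* was the member that rose in all 4 lines, by 1.7-fold to 2.68-fold, while *Slc30a5*, *Slc30a6* and *Slc30a9* passed the test in none. Fold changes are on a log2 scale with their standard error (SE), and adjusted p-values are Benjamini-Hochberg values of edgeR's quasi-likelihood test over all genes tested, here and below.

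In scr cells *Slc30a1* stood at 10.64 and 11.14 CPM without added metal and at 30.56 and 27.98 CPM with Zn. Both Zn libraries were far above both untreated ones, a log2 change of 1.42 ± 0.12 (edgeR adjusted p = 0.00485). In *Baf180* KD it rose from 16.63 and 15.94 to 35.86 and 30.97 CPM (1.03 ± 0.12, edgeR adjusted p = 0.00762), and in *Brd9* KD from 16.44 and 14.49 to 33.06 and 29.43 CPM (1.01 ± 0.13, edgeR adjusted p = 0.00779). The groups did not overlap in these 3 lines. In *Baf250a* KD the untreated libraries already held 25.53 and 29.44 CPM, and the Zn libraries 49.37 and 25.63 CPM, the latter from the shallow library, so the groups overlapped. The change there was 0.77 ± 0.14 (edgeR adjusted p = 7.66e-04), but it rested on 1 library: without Zn replicate 1 it was -0.06 (edgeR adjusted p = 0.947), and with DESeq2 it was 0.61 (DESeq2 adjusted p = 0.253). Leaving out 1 library kept the direction in the other 3 lines, with the call lost without scr NT replicate 2 (1.49, edgeR adjusted p = 0.0815), either untreated *Baf180* KD replicate (edgeR adjusted p = 0.172 and 0.236) or *Brd9* KD Zn replicate 1 (0.93, edgeR adjusted p = 0.152). Averaged over the 4 lines the Zn response of *Slc30a1* was 1.05 ± 0.07 (edgeR adjusted p = 1.09e-08), and this call held under every alternative run.

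The share of all genes called with Zn set the background for these counts. Zn changed 17.9% of all genes tested in scr and 14.9% in *Baf250a* KD, but 0.0261% in *Baf180* KD and 0.0536% in *Brd9* KD. In *Baf180* KD that was 4 genes of 15298, namely *Slc30a1*, *Mt1*, *Mt2* and *Slc39a10* (1959 genes had an unadjusted p under 0.05). In *Brd9* KD it was 8 of 14916 genes, which also included *Slc30a1*, *Mt1*, *Mt2* and *Slc39a10* (423 had an unadjusted p under 0.05). These totals depended on the model: in *Baf180* KD DESeq2 called 91 genes and the fit without a filter 398, and in scr the GC and length correction left 147 of 2685 and leaving out either Zn replicate 12 or 7. Of the 6 tested Slc30 genes, 3 passed the test in scr, all higher with Zn (*Slc30a1*, *Slc30a4*, *Slc30a7*), 2 passed in *Baf250a* KD, in opposite directions (*Slc30a1* and *Slc30a4*), and in each of the other lines 1 passed, *Slc30a1*. For the average response, 0.358% of genes were called, and 1 of the 6 members.

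*Slc30a4* took part in the Zn response in scr cells, where it went from 226.4 and 157.5 CPM to 369.1 and 386.2 CPM. All 4 values were separate, the untreated pair differing most between themselves, and the change was 0.98 ± 0.16 (edgeR adjusted p = 0.0221). In *Baf250a* KD the direction was opposite, from 111.7 and 125.7 to 91.44 and 76.89 CPM (-0.41, edgeR adjusted p = 0.0127). In *Baf180* KD it went from 182.5 and 189.8 to 144.7 and 163.3 CPM (-0.27, edgeR adjusted p = 0.383), and in *Brd9* KD from 299.7 and 315.3 to 289.8 and 329 CPM (0.01 on the log2 scale), neither passing the test. Both calls were lost once the libraries' trends in GC content and transcript length were taken out: the scr value became 0.41 (edgeR adjusted p = 0.0702) and the *Baf250a* KD value -0.15 (edgeR adjusted p = 0.298). The scr call was also lost without NT replicate 2 (0.77, edgeR adjusted p = 0.17) or either Zn replicate (edgeR adjusted p = 0.0896 and 0.199), and the *Baf250a* KD call without NT replicate 2 (edgeR adjusted p = 0.189) or Zn replicate 1 (edgeR adjusted p = 0.2), or with DESeq2 (-0.46, adjusted p = 0.117).

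The libraries differed in how counts followed GC content and the length of merged exons. The trend was fitted on both together, so the part of each was not told apart. The 6 tested members had a GC content of 41.2% to 46.2%, below the median of 49.2% over all genes in the joint fit. In the Zn response of scr this joint trend alone predicted a log2 difference of 0.59 for *Slc30a4*, 0.53 for *Slc30a5* and 0.46 for *Slc30a7*, but 0.12 for *Slc30a1*. The observed change of *Slc30a5* there was 0.05, which the correction took to -0.48. *Slc30a1* changed little with the correction: its Zn responses became 1.30 in scr, 1.07 in *Baf180* KD, 0.77 in *Baf250a* KD and 0.99 in *Brd9* KD.

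*Slc30a7*, a Golgi exporter, rose with Zn in scr from 48.05 and 44.89 to 60.37 and 58.83 CPM. This was 0.36 ± 0.10 (edgeR adjusted p = 0.0381), without overlap, and -0.10 after the GC and length correction. The call was also lost without scr NT replicate 2 or either scr Zn replicate (edgeR adjusted p = 0.185, 0.216 and 0.238). In the 3 KD lines its Zn response lay between -0.15 and -0.11 and did not pass. The Zn responses of *Slc30a5* were 0.04 to 0.29, of *Slc30a6* -0.06 to 0.19 and of *Slc30a9* -0.17 to 0.13 over the 4 lines.

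**Figure D2:**
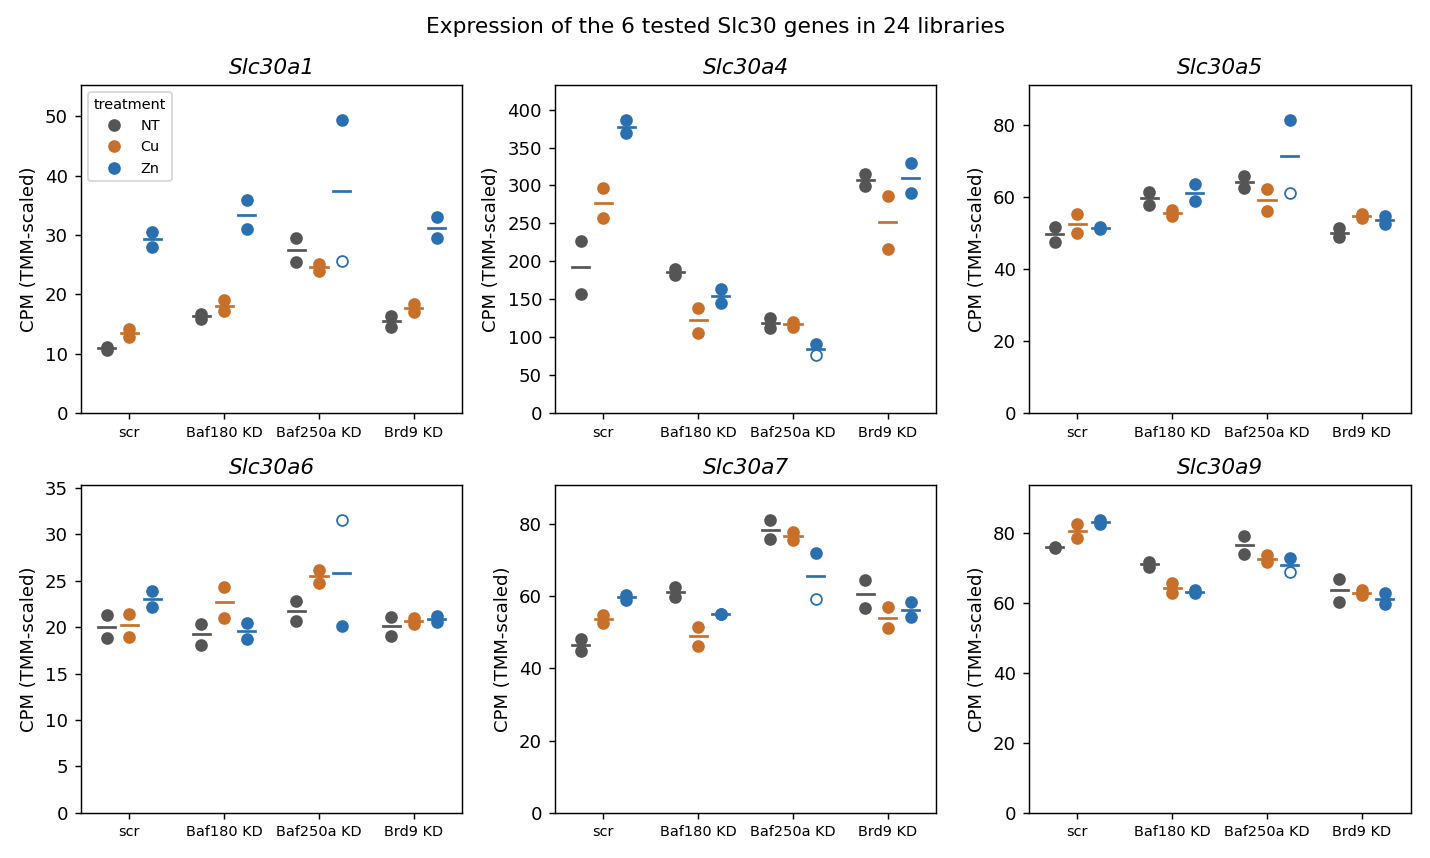
Points give the CPM (vertical axis, TMM-scaled) of each tested Slc30 gene in each library, by cell line (horizontal axis) and treatment (colour), with a bar at the mean of the 2 replicates; the open point is the shallow *Baf250a* KD Zn library. *Slc30a1* was higher with Zn in each line but for that library, which read 25.63 CPM, and *Slc30a4* rose with Zn in scr and was lowest in *Baf250a* KD.

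Few of the exporters passed the test with copper. In scr, *Baf250a* KD and *Brd9* KD none of the 6 members passed the test, where 0.0467%, 1.18% and 0.550% of all genes did (1606, 1464 and 2842 genes had an unadjusted p under 0.05), and in *Baf180* KD 1 of 6 passed, where 14.6% of all genes were called. That member was *Slc30a4*, at 182.5 and 189.8 CPM without metal and 105.4 and 138.8 CPM with Cu. Both Cu libraries were below both untreated ones (-0.61 ± 0.12, edgeR adjusted p = 0.0102), while the value was -0.29 after the GC and length correction (edgeR adjusted p = 0.0631). The call was lost without NT replicate 2 (-0.58, edgeR adjusted p = 0.118) or Cu replicate 1 (-0.43, edgeR adjusted p = 0.111). *Slc30a7* in the same line went from 62.48 and 59.68 to 46.25 and 51.51 CPM and narrowly missed the threshold (-0.32, edgeR adjusted p = 0.0518). It was called in 5 of 7 alternatives, and its value was -0.03 after the GC and length correction. *Slc30a1* stood at 14.09 and 12.89 CPM in Cu-treated scr cells, above its untreated values and below its Zn values. Its Cu response did not pass the test in any line, and neither did the response of any member averaged over the 4 lines, where 9.08% of all genes were called.

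**Figure D3:**
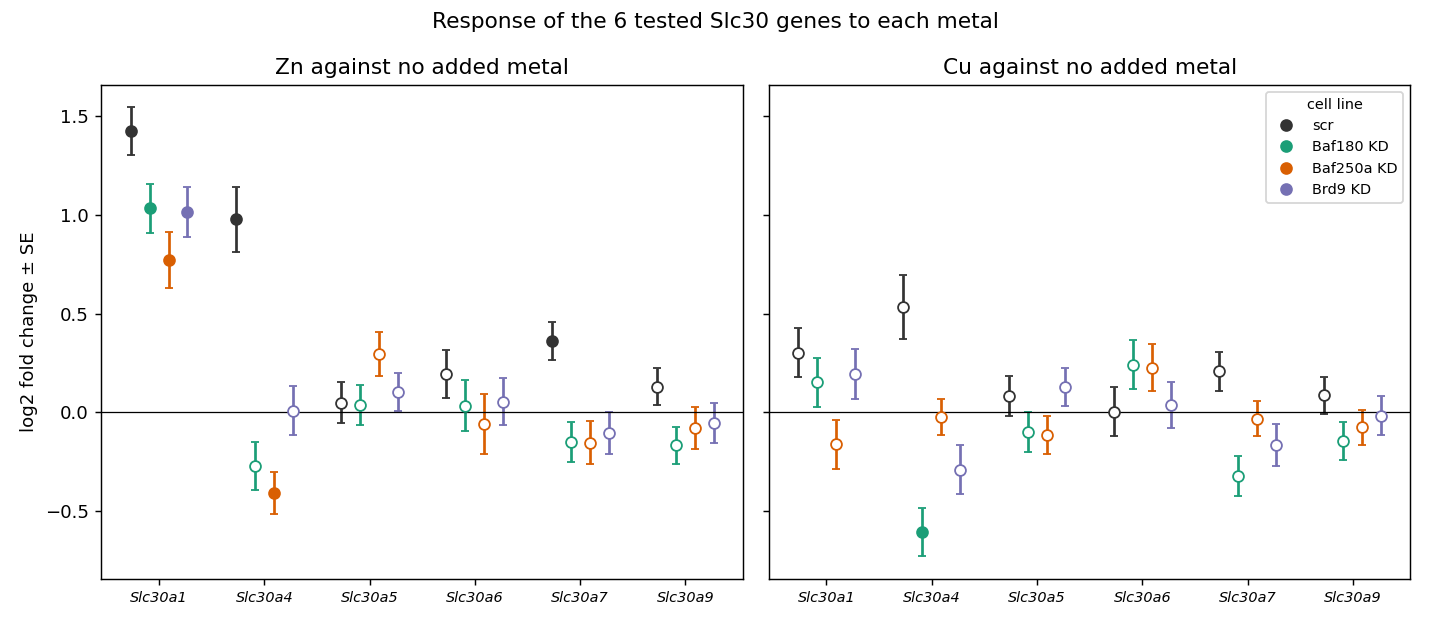
Points give the log2 fold change of Zn (left) or Cu (right) against no added metal, with the SE, for the 6 tested genes (horizontal axis) in the 4 lines (colour); filled points passed an edgeR adjusted p of 0.05. With Zn, *Slc30a1* lay between 0.77 and 1.42 in all lines; with Cu, the filled point is *Slc30a4* in *Baf180* KD at -0.61.

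To ask how the exporters differed between KD and scr cells, KD lines were compared with scr under the same treatment. Each subunit was represented by a single KD line, in which the targeted mRNA was lowered and not absent. An effect of the knockdown therefore cannot be told apart from other differences between the lines. The 3 comparisons within a treatment share their scr libraries, so a deviation of those libraries enters all 3. Without added metal *Slc30a1* was higher in every KD line. Its untreated values were 10.64 and 11.14 CPM in scr, 16.63 and 15.94 CPM in *Baf180* KD, 16.44 and 14.49 CPM in *Brd9* KD, and 25.53 and 29.44 CPM in *Baf250a* KD. All 6 KD libraries were above both scr libraries, with *Baf250a* KD highest and the other KD lines indistinguishable from each other by overlap. The log2 differences from scr were 1.33 ± 0.14 in *Baf250a* KD (edgeR adjusted p = 4.59e-06), 0.58 ± 0.16 in *Baf180* KD (edgeR adjusted p = 5.26e-03) and 0.51 ± 0.16 in *Brd9* KD (edgeR adjusted p = 0.0356). The *Baf180* KD call was lost without its NT replicate 1 (0.54, edgeR adjusted p = 0.0609), and the *Brd9* KD call without either of its NT replicates (0.41 and 0.59, edgeR adjusted p = 0.211 and 0.0678) or with DESeq2 (0.50, adjusted p = 0.103). The untreated *Baf250a* KD cells held about as much *Slc30a1* mRNA as Zn-treated scr cells (30.56 and 27.98 CPM), a pair of groups whose values overlapped.

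*Slc30a4* diverged between the KD lines. In untreated *Brd9* KD it was higher than in scr, 299.7 and 315.3 against 226.4 and 157.5 CPM (0.68 ± 0.15, edgeR adjusted p = 0.00972). In untreated *Baf250a* KD it was lower, 111.7 and 125.7 CPM (-0.69 ± 0.15, edgeR adjusted p = 0.00157; -0.44 without scr NT replicate 1), and in untreated *Baf180* KD it lay within the scr range (-0.04, edgeR adjusted p = 0.834; -0.39 and edgeR adjusted p = 0.00934 after the GC and length correction). With Cu, *Baf180* KD (105.4 and 138.8 CPM) and *Baf250a* KD (119.5 and 114.1 CPM) were both below scr (257.6 and 297.3 CPM), by log2 differences of -1.18 (edgeR adjusted p = 3.45e-04) and -1.25 (edgeR adjusted p = 1.25e-04). With Zn the differences from scr were -1.29 in *Baf180* KD (edgeR adjusted p = 1.72e-06) and -2.09 ± 0.14 in *Baf250a* KD (edgeR adjusted p = 2.7e-17). These lower values and the *Brd9* KD one in untreated cells kept their call under every alternative run, although the GC and length correction took the Cu values to -0.99 and -1.33, the Zn values to -0.86 and -1.59 and the untreated *Brd9* KD value to 0.32. In *Brd9* KD with Cu or Zn the gene did not pass the test (-0.29 with Zn, edgeR adjusted p = 0.0527).

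Among the secretory pathway exporters, *Slc30a7* was higher than in scr in all 3 untreated KD lines: 48.05 and 44.89 CPM in scr, 62.48 and 59.68 in *Baf180* KD, 75.63 and 81.06 in *Baf250a* KD, and 56.81 and 64.32 in *Brd9* KD. No KD library overlapped with scr. The difference was 0.75 ± 0.11 in *Baf250a* KD (edgeR adjusted p = 6.87e-05), a call kept under every alternative run, although the GC and length correction took the value to 0.27 (edgeR adjusted p = 0.0114). It was 0.40 in *Baf180* KD (edgeR adjusted p = 0.0134) and 0.38 in *Brd9* KD (edgeR adjusted p = 0.0364), which became -0.03 and 0.03 after the GC and length correction. Both of these calls were also lost without scr NT replicate 2 or either NT replicate of the KD line. *Slc30a5*, which pairs with *Slc30a6* in a heterodimer, was higher in untreated *Baf250a* KD (62.4 and 65.84 against 51.68 and 47.57 CPM; 0.37, edgeR adjusted p = 0.0104, and -0.05 after the correction; lost without either *Baf250a* KD NT replicate). *Slc30a6* itself passed the test in none of the 25 comparisons made (lowest unadjusted p = 0.0284, in Cu-treated *Baf250a* KD against scr).

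With Cu, *Baf250a* KD was higher for *Slc30a1* (23.97 and 25.11 against 14.09 and 12.89 CPM; 0.87, edgeR adjusted p = 0.00145) and for *Slc30a7* (0.51, edgeR adjusted p = 0.0048; 0.27 and edgeR adjusted p = 0.0731 after the correction; lost without either *Baf250a* KD Cu replicate). *Slc30a1* in *Baf180* KD and *Brd9* KD with Cu did not pass (0.43 and 0.40, edgeR adjusted p = 0.0734 and 0.098). With Zn, *Slc30a1* differed from scr by 0.19 in *Baf180* KD (edgeR adjusted p = 0.138) and 0.10 in *Brd9* KD (edgeR adjusted p = 0.521), neither past the threshold. The *Baf180* KD value was 0.30 without its Zn replicate 2 (edgeR adjusted p = 0.00369).

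Unlike that of *Slc30a4*, the *Baf250a* KD calls of *Slc30a1*, *Slc30a5* and *Slc30a7* against scr with Zn rested on Zn replicate 1, the only deep library of that group. *Slc30a1* was 0.72 above scr (edgeR adjusted p = 4.24e-07) and -0.20 without that library. *Slc30a7* was 0.25 above (edgeR adjusted p = 0.018) and -0.03 without it, and *Slc30a5* was 0.63 above (81.29 and 61.12 against 51.13 and 51.52 CPM, edgeR adjusted p = 1.38e-07) and 0.23 without it (edgeR adjusted p = 0.62). These 3 calls were also lost without either scr Zn replicate and with DESeq2. *Slc30a5* was 0.25 above scr in Zn-treated *Baf180* KD (63.56 and 58.77 CPM, edgeR adjusted p = 0.018), a call lost without either scr Zn replicate (edgeR adjusted p = 0.289 and 0.198) or with DESeq2 (adjusted p = 0.0779).

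*Slc30a9*, the mitochondrial exporter, was lower than in scr in Zn-treated *Baf180* KD and *Brd9* KD. Its Zn response within these lines did not pass the test (-0.17 and -0.05). Without metal the differences from scr were -0.10 and -0.25 in the same order, and did not pass. They reached -0.48 and -0.55 under the alternatives run, where they were called in 1 and 2 of 7. The untreated values did not overlap with scr: 76.08 and 75.86 CPM in scr, 71.62 and 70.43 in *Baf180* KD, and 66.99 and 60.32 in *Brd9* KD. With Cu they were -0.33 and -0.36, not called in the main fit but called in 3 and 5 of 7 alternatives. It stood at 83.78 and 82.57 CPM in Zn-treated scr, 63.63 and 62.9 CPM in *Baf180* KD and 62.97 and 59.59 CPM in *Brd9* KD. The groups were well apart, by -0.39 ± 0.07 (edgeR adjusted p = 0.001) and -0.44 ± 0.09 (edgeR adjusted p = 0.00499), and both calls held under the alternatives run, that in *Brd9* KD with an edgeR adjusted p that rounds to 0.05 without scr Zn replicate 2.

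In counts, 2 of the 6 members passed the test in untreated *Baf180* KD, 4 in *Baf250a* KD and 3 in *Brd9* KD, where 42.3%, 57.2% and 29.8% of all genes passed the test. All were higher but *Slc30a4* in *Baf250a* KD. With Cu the counts were 1, 3 and 0, against 24.6%, 42.6% and 12.7% of all genes; the 0 in *Brd9* KD stood beside 4059 genes of the whole table with an unadjusted p under 0.05. With Zn they were 3, 4 and 1, against 49.3%, 57.0% and 22.0%. With so few members, shares of this size are not a result about the family.

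**Figure D4:**
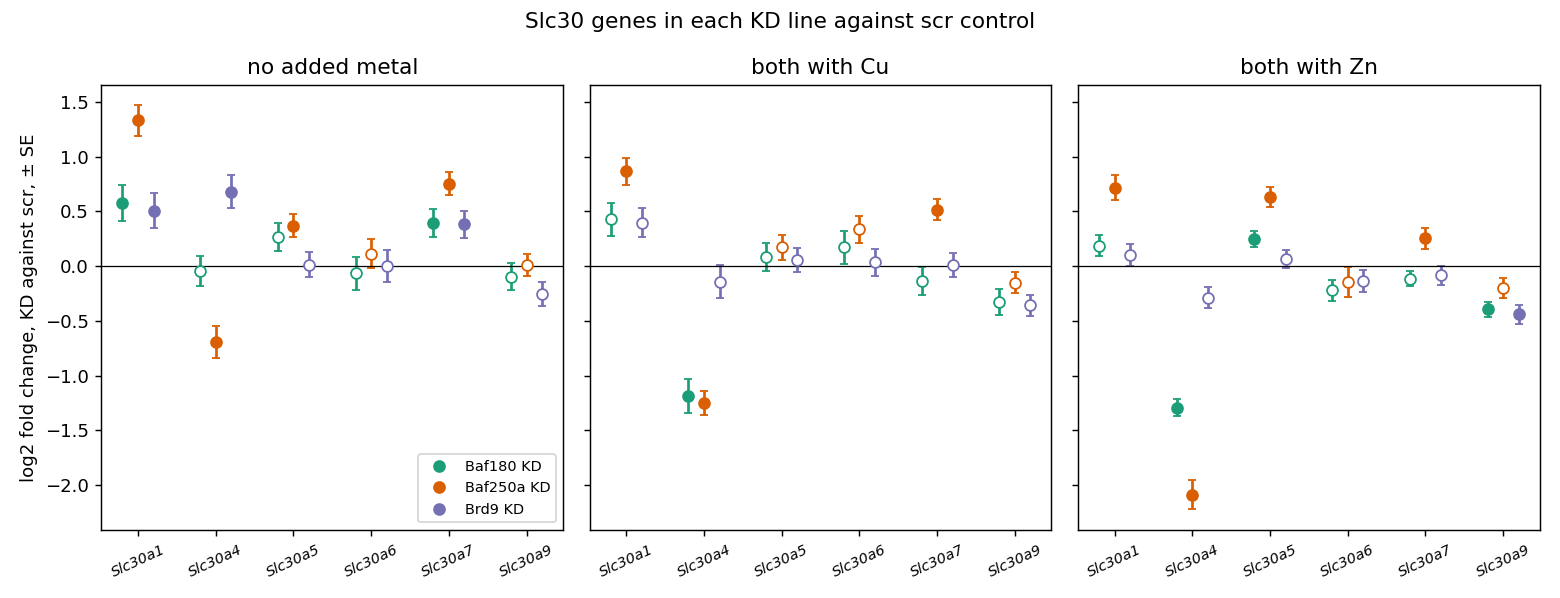
Points give the log2 fold change of each KD line against scr (vertical axis, with the SE) for the 6 tested genes (horizontal axis), without metal, with Cu and with Zn; filled points passed an edgeR adjusted p of 0.05. *Slc30a1* in *Baf250a* KD went from 1.33 without metal to 0.72 with Zn, and *Slc30a4* in the same line from -0.69 to -2.09.

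Whether the Zn response itself differed between lines was tested on all 24 libraries in 1 fit, as the response of each KD line less that of scr. The difference was -0.70 for *Slc30a1* in *Baf250a* KD (edgeR adjusted p = 0.0139), a line whose untreated level was already raised and whose Zn group holds the shallow library; without Zn replicate 1 of that group it was -1.51. For *Slc30a1* in *Baf180* KD and *Brd9* KD it was -0.39 and -0.41 and did not pass (edgeR adjusted p = 0.146 and 0.176), though the *Baf180* KD value passed when either *Baf250a* KD Zn library was left out (-0.42 each time, edgeR adjusted p = 0.0428 and 0.0416). *Slc30a4* responded less than in scr in every KD line, with differences of -1.25 in *Baf180* KD (edgeR adjusted p = 8.76e-04), -1.40 in *Baf250a* KD (edgeR adjusted p = 4.1e-04) and -0.97 in *Brd9* KD (edgeR adjusted p = 0.0236). The GC and length correction took these to -0.47 (edgeR adjusted p = 0.0271), -0.54 (edgeR adjusted p = 0.0119) and -0.40 (edgeR adjusted p = 0.126). The *Brd9* KD call was also lost without scr NT replicate 2, either scr Zn replicate, *Brd9* KD NT replicate 2 or *Brd9* KD Zn replicate 1 (-0.77 to -1.04, edgeR adjusted p = 0.0559 to 0.183). *Slc30a7* followed with -0.51, -0.53 and -0.46, which became 0.13, 0.17 and -0.01 after the correction. Its *Brd9* KD call was lost without scr NT replicate 2, either scr Zn replicate, *Brd9* KD NT replicate 2 or either *Brd9* KD Zn replicate (edgeR adjusted p = 0.0701 to 0.199). *Slc30a9* was called in *Baf180* KD (-0.30, edgeR adjusted p = 0.0489; 0.22 after the correction), a call lost when any 1 of 10 libraries was left out. In all, 3 of 6 members responded less to Zn in *Baf180* KD, 3 in *Baf250a* KD and 2 in *Brd9* KD. Of all genes, 14.4%, 14.8% and 6.04% were called lower in response, and 26.6%, 29.3% and 9.64% in either direction. These differences share the scr libraries and are not independent of one another.

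For Cu, *Slc30a4* and *Slc30a7* responded lower in *Baf180* KD than in scr, with differences of -1.14 (edgeR adjusted p = 0.00766) and -0.53 (edgeR adjusted p = 0.016), where 8.01% of all genes were called lower and 13.1% in either direction. The correction took these to -0.60 (edgeR adjusted p = 0.0224) and -0.04, and both calls were lost without scr NT replicate 2 or *Baf180* KD Cu replicate 1, and that of *Slc30a7* also without *Baf180* KD NT replicate 2. In *Baf250a* KD and *Brd9* KD no member passed, beside 0.0121% and 0.0243% of all genes (1343 and 2890 with an unadjusted p under 0.05).

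The 6 genes differed in what their levels followed. For *Slc30a1*, 65.3% of the variance of log2 CPM over the 24 libraries lay between treatments within lines, 27.3% between lines and 7.41% between replicates. For *Slc30a4* and *Slc30a9* most of it lay between lines, 79.5% and 82.2%, and for *Slc30a5* and *Slc30a7* 63% and 64.5%. For *Slc30a6* replicates held the largest part with all libraries (43.9%), but without the shallow library treatments within lines did (52.3%, against 26.7% for replicates). With each line centred on its own mean, *Slc30a4* and *Slc30a7* moved together (Pearson r = 0.89 over 24 libraries), the pair with the highest r of the 15; the GC and length trend predicted a Zn response in scr of 0.59 and 0.46 for them, and its part in this r was not tested. *Slc30a1* and *Slc30a4* had r = 0.339.

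The genes most like *Slc30a1* in the same centred measure, out of 16486, were *Mt2* (r = 0.913) and *Mt1* (r = 0.900), followed by *Rcbtb1* (0.809), *Sccpdh* (0.765) and *Rbbp7* (0.763). Without the shallow library *Mt2* and *Mt1* kept the first 2 places (0.955 and 0.947). Without centring they also kept them (0.874 and 0.862), whereas *Rbbp7* fell to place 2120. These correlations describe 24 libraries that share lines and treatments and carry no p-value.

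**Figure D5:**
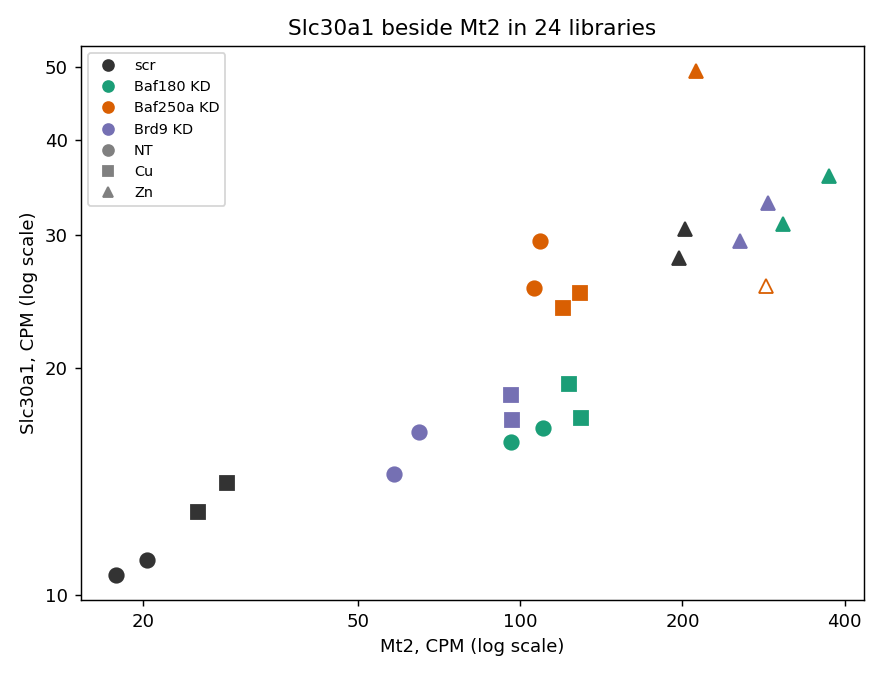
Each point is 1 of the 24 libraries, with *Mt2* in CPM on the horizontal and *Slc30a1* in CPM on the vertical axis, both on log scales, by line (colour) and treatment (shape); the open point is the shallow library. Untreated scr cells sit lowest for both genes (*Mt2* 17.83 and 20.33 CPM), and untreated *Baf250a* KD cells lie above *Baf180* KD cells of like *Mt2*.

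Of 15 further zinc genes listed beside the exporters (*Mtf1*, 3 metallothioneins and 11 zinc importers of the Slc39 family), 11 were tested. With Zn 2 rose and 3 fell in scr, 2 rose and 1 fell in *Baf180* KD, 3 rose and 1 fell in *Baf250a* KD, and 2 rose and 1 fell in *Brd9* KD. The share of all genes called was 17.9%, 0.0261%, 14.9% and 0.0536% in the same order. The median log2 change over the 11 was -0.25, 0.08, 0.02 and 0.01. *Mt1* and *Mt2* rose in every line, *Mt2* by 3.38 in scr, 1.72 in *Baf180* KD, 1.10 in *Baf250a* KD and 2.14 in *Brd9* KD. The importer *Slc39a10* fell in every line, with log2 changes of -0.90, -1.27, -1.06 and -1.24 in the same order. *Slc39a7*, which releases zinc from the endoplasmic reticulum, fell in scr (-0.91, edgeR adjusted p = 0.0221). The calls of these further zinc genes were not followed through the alternatives. Over all genes, the Zn calls in scr fell from 2685 to 147 with the GC and length correction. In *Baf250a* KD *Slc39a7* was called higher (0.68, edgeR adjusted p = 0.00376), but the groups overlapped. Its values there were 33.52 and 52.64 CPM with Zn, in the group that holds the shallow library, and 26.28 and 36.63 CPM without metal. *Mtf1*, the gene of the metal-responsive factor, did not pass the test with Zn in any line (-0.10 to 0.17). Like *Slc30a1*, *Mt1* and *Mt2* were higher in all 3 untreated KD lines than in scr, *Mt2* by 2.43 in *Baf180* KD, 2.49 in *Baf250a* KD and 1.69 in *Brd9* KD, while *Mtf1* was lower in *Baf250a* KD (-0.53, edgeR adjusted p = 0.00123). On the log2 scale the Zn responses of *Mt1* and *Mt2* were smaller than in scr in all 3 KD lines, with differences of -1.66, -2.25 and -1.24 for *Mt2*. These are ratios to untreated levels that were already raised in the KD lines. With Zn, *Mt2* stood at 201.9 and 197.1 CPM in scr and 373.7 and 306.8 in *Baf180* KD. It was 212.1 and 285.9 CPM in *Baf250a* KD, the latter from the shallow library, and 288.4 and 255.8 in *Brd9* KD. *Mt1* with Zn was also higher in every KD library than in both scr libraries.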

How the data were processed

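Raw counts per gene (STAR, mm10 and DESeq2 are named in the submitters' processing notes; further versions are not given in the sources used here) were deposited by the authors as 1 table of 24 libraries, 2 in each of 12 groups, with 55291 gene symbols, and the unit used is counts as the authors deposited them. The 14 deposited tables of the authors' own comparisons (log2 fold changes and p-values) were not used. Groups came from sample titles. The study's methods describe the 2 replicates of a group as independent biological ones; the labels do not say which cultures they came from.

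TMM factors over all 24 libraries scaled counts to CPM. edgeR 4.0.16 (R 4.3.3, limma 3.58.1) fitted quasi-likelihood models after filterByExpr: 6 libraries for metal responses within a line, 4 for KD against scr, and all 24 for differences and means of responses. Adjusted p-values are Benjamini-Hochberg values over all genes tested, with a threshold of 0.05, and the SE is the log2 change divided by the root of F. Alternatives were DESeq2 1.42.0, RLE factors, TMM within each fit, no filter, a replicate block, a GC and length correction (natural splines, 5 degrees of freedom), 1 fit of all libraries, and leaving out each library. The code was tested on simulated data. All 9 members are named in every comparison; of 15 related zinc genes, values are given for *Mtf1*, *Mt1*, *Mt2* and those called with Zn in at least 2 lines; likeness to *Slc30a1* is Pearson's r of log2 CPM (prior count 2) centred per line, with the 5 highest named. The members and lists were chosen with earlier results of these data known. Positions are GENCODE on GRCm38; promoters are RefSeq windows of 300 bases on GRCm38.p6, with all 9 members matched.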

Additional observations from a re-analysis of the deposited data

Results flagged for a closer look

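In the fit of all 24 libraries, 10 responses of Slc30 genes to a metal differed between a KD line and scr by a test of the difference itself (edgeR's quasi-likelihood test, adjusted over all genes), each value being the log2 response of the KD line less that of scr. For Zn, *Slc30a4* differed by -1.25 in *Baf180* KD, -1.40 in *Baf250a* KD and -0.97 in *Brd9* KD, *Slc30a7* by -0.51, -0.53 and -0.46 in the same order, *Slc30a9* by -0.30 in *Baf180* KD, and *Slc30a1* by -0.70 in *Baf250a* KD. For Cu, *Slc30a4* differed by -1.14 and *Slc30a7* by -0.53, both in *Baf180* KD. All 10 were lower in the KD line, and all use the same scr libraries. Of all genes tested, 26.6%, 29.3% and 9.64% differed in Zn response in *Baf180* KD, *Baf250a* KD and *Brd9* KD, and 13.1% in Cu response in *Baf180* KD. The shares called lower were 14.4%, 14.8%, 6.04% and 8.01% in the same order. With the GC and length trends of all libraries taken out, the 5 differences of *Slc30a7* and *Slc30a9* lay between -0.04 and 0.22. Those of *Slc30a4* with Zn became -0.47, -0.54 and -0.40, the last no longer called, and that with Cu became -0.60. *Slc30a5*, not called in the main fit, was called higher for Zn in *Baf180* KD with the correction (0.71, edgeR adjusted p = 0.0102). In *Baf250a* KD its difference in Zn response reached 1.01 under the alternatives and was called in 1 of 7. Groups of 2 libraries are too small to look for a single outlying library by its distance from the others.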

How the results depend on the processing

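Of 40 called Slc30 results, 15 kept their call and direction under every alternative and every library left out (*Slc30a9* in Zn-treated *Brd9* KD with an adjusted p that rounds to 0.05 in one of them), and 25 lost it at least once. Leaving out a library leaves a group with 1, which is then assumed to vary like the others. The share of all genes called moved with the setting too, so the counts below do not describe the Slc30 genes alone. For *Baf180* KD, *Baf250a* KD and *Brd9* KD against scr with Cu it was 24.6%, 42.6% and 12.7% in the main fits. It was 28.9%, 47.8% and 18.2% with the correction, and 34.4%, 46.1% and 20.9% with all libraries in 1 fit. The Cu calls within lines (1) became 2 with RLE factors, TMM within each fit, no filter, DESeq2, the replicate block and all 24 libraries in 1 fit, and 0 with the GC and length correction (0 to 2 with a library left out). KD against scr with Cu gave 4 calls, 7 with the correction and 9 with all libraries in 1 fit (3 to 9 with a library left out). KD against scr with Zn gave 8, and 5 with DESeq2 (4 to 10). Differences in Zn response gave 8, and 5 with the correction or with the 12 libraries of the 2 lines (5 to 9). Differences in Cu response gave 2, 4 with no filter and 1 with the correction (0 to 3). Zn calls within lines (7) ran from 4 to 8 with a library left out, the 4 without scr NT replicate 2. The Zn response of *Slc30a1* ran from 1.39 to 1.52 in scr, 0.91 to 1.14 in *Baf180* KD, -0.06 to 0.85 in *Baf250a* KD (0.61 with DESeq2, adjusted p = 0.253) and 0.93 to 1.11 in *Brd9* KD.

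Directions turned as follows, and the cause was not tested. With the GC and length correction, *Slc30a7* became -0.10 with Zn in scr, -0.03 in untreated *Baf180* KD against scr, and 0.13 and 0.17 for the difference in Zn response of *Baf180* KD and *Baf250a* KD. With it *Slc30a5* became -0.05 in untreated *Baf250a* KD, -0.35 in untreated *Brd9* KD and 0.71 for the difference in Zn response between *Baf180* KD and scr, and *Slc30a9* became -0.42 in untreated *Baf250a* KD and 0.22 for that same difference. Without *Baf250a* KD Zn replicate 1, *Slc30a1* became -0.06 for Zn in that line and -0.20 against scr with Zn, and *Slc30a7* -0.03 against scr with Zn.

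Replicate numbers were not taken to pair the libraries, since the labels give them no shared source: the correlation of same-numbered deviations ran from -0.187 to 0.251 and was above 0.1 in 6 of 17 comparisons, among them both metal responses of *Baf180* KD. The replicate block moved 6 single calls below the threshold and 2 above it, and the untreated KD calls from 9 to 6. Over all genes, called counts moved by more than 1.5 times in several comparisons: Zn in scr from 2685 to 147 with the correction, Zn in *Baf250a* KD from 2190 to 330 with DESeq2, Cu in scr from 7 to 662 with no filter, Zn in *Baf180* KD from 4 to 518 with the block, and the *Brd9* KD difference in Zn response from 1590 to 9 with the correction and 46 with 12 libraries. The depth of the shallow *Baf250a* KD Zn library limits each Zn value of that line.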
